A study of Mus musculus with 2 samples.

Results

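Calponins and transgelins are small actin-binding proteins that were first known from smooth muscle. The mouse genes Cnn1, Cnn2 and Cnn3 encode the calponins, and Tagln and Tagln2 encode transgelin (SM22-alpha) and transgelin 2. These 5 genes were chosen by their symbols, and every transcript model that the deposited tables assign to them was taken. They held 64 of 82272 transcript models and 2264 of 791850 reads in replicate 1, and 67 of 78691 models and 2529 of 735077 reads in replicate 2. All 5 were among the 14198 annotated genes with a read in either library.

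The RNA came from C2C12, a mouse myoblast line that the labels trace to C3H mice and to thigh muscle after a crush injury. Total RNA was read by long-read sequencing in 1 group of 2 biological replicates, with no genotype, treatment or time label that differs between them. The group is therefore a single line of 1 origin, and whether the cultures were proliferating or differentiating is not given in the sources used here. In bulk RNA such as this, fewer cells of a type and less RNA per cell cannot be told apart.

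Members of both families bind actin filaments and hold a calponin homology domain near the amino terminus. Short calponin-like repeats follow this domain and are more numerous in the calponins. In smooth muscle, calponin 1 restrains the actin-activated ATPase of myosin, and transgelin crosslinks actin filaments. Their genes are classic targets of serum response factor, which binds the CArG box of promoters together with the cofactors myocardin and MRTF, and MRTF answers to the pool of free actin. Cnn2, Cnn3 and Tagln2 are made in many non-muscle cells, and Cnn3 is made in myoblasts, where it has been linked to fusion.

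The exon plan of the families was the frame in which the reads were placed. The most used transcript of each calponin had 7 exons in GENCODE M21 on mm10, and that of each transgelin had 5. Exons 2, 3, 4 and 6 of the calponins had the same lengths in Cnn1, Cnn2 and Cnn3, namely 122, 67, 138 and 147 bases. Exon 5 had 111 bases in Cnn1, against 117 in Cnn2 and 117 in Cnn3. The transgelins shared an exon 4 of 103 bases and 180 coding bases in exon 2. In both transgelins exon 1 was untranslated, whereas exon 1 of the calponins held the first 63 (Cnn1), 63 (Cnn2) and 57 (Cnn3) coding bases.

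The sequences show how far the copies can be told apart by a read. Exon 3 of the calponins is printed first, because it is the shortest internal exon with a common length, with capitals at the 25 of 67 positions where the 3 genes are not all alike. It lies at chr9:22104306-22104372 (Cnn1), chr10:79992273-79992339 (Cnn2) and chr3:121450292-121450358 (Cnn3), all on the plus strand.
Cnn1: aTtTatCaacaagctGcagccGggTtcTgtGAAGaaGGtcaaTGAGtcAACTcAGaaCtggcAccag
Cnn2: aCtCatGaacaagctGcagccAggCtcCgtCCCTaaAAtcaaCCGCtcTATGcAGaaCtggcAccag
Cnn3: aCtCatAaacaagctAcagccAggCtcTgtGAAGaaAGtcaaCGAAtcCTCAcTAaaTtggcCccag

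Exon 4 of the transgelins follows, at chr9:45930833-45930935 on the minus strand for Tagln and chr1:172506186-172506288 on the plus strand for Tagln2. Capitals mark the 33 of 103 positions where the genes differ.
Tagln: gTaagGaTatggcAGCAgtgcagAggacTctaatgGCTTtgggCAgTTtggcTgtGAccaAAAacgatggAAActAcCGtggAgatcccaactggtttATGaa
Tagln2: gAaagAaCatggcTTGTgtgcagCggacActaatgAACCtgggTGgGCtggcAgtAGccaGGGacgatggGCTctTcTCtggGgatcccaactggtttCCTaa
Over the whole coding sequence, aligned bases were identical at 68.2% between Cnn1 and Cnn2, 71.1% between Cnn1 and Cnn3 and 69.8% between Cnn2 and Cnn3. For Tagln and Tagln2 the share was 70.7%, and between a calponin and a transgelin it ran from 62.9% to 66.3%. The longest run without a difference between any pair was 23 bases, between Cnn1 and Cnn3.

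All 5 genes were read in both libraries, and among themselves their levels fell into a higher and a lower group. In the lower group, Tagln ranked 2004 in replicate 1 and 1996 in replicate 2, and Cnn1 5300 and 4942. These ranks are among the 13029 and 12888 annotated genes read. Levels are raw reads scaled to CPM, the count per 1000000 annotated-gene reads of a library, which numbered 773408 in replicate 1 and 722647 in replicate 2. A long read stands for 1 molecule, so CPM were not divided by length, and a value per kilobase of the most used transcript is given where genes are set side by side. For a gene without reads, 3 counts set an upper limit of 3.88 CPM in replicate 1 and 4.15 CPM in replicate 2. The 5 genes together stood at 2927 and 3500 CPM, a mean of 3213 ± 405 CPM (SD, n = 2).

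Among the calponins, Cnn3 (ENSMUSG00000053931.11; chromosome 3, 121426497 to 121458207), the acidic calponin, had 884 reads in replicate 1 and 954 in replicate 2. That is 1143 and 1320 CPM, a mean of 1232 ± 125 CPM, at ranks 102 and 82 among all genes read. Cnn2 (ENSMUSG00000004665.10; chromosome 10, 79988584 to 79996062), the calponin of non-muscle cells, had 784 and 923 reads. Its level of 1014 and 1277 CPM, with a mean of 1145 ± 186 CPM, overlapped that of Cnn3. Cnn1 (ENSMUSG00000001349.5; chromosome 9, 22099216 to 22109630), the smooth muscle calponin, had 20 and 22 reads, or 25.9 and 30.4 CPM, a mean of 28.2 ± 3.24 CPM. Cnn1 made up 1.18% of calponin reads in replicate 1 (Wilson 95% interval 0.768 to 1.82) and 1.16% in replicate 2 (0.766 to 1.75). Cnn2 and Cnn3 shared the rest almost evenly, with Cnn3 at 52.4% and 50.2% and Cnn2 at 46.4% and 48.6%.

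The transgelins divided in the same way, into 1 abundant gene and 1 that was less so. Tagln2 (ENSMUSG00000026547.15; chromosome 1, 172500047 to 172507380), the widely made form, had 497 and 553 reads, or 643 and 765 CPM, a mean of 704 ± 86.7 CPM. Tagln (ENSMUSG00000032085.5; chromosome 9, 45929619 to 45936058, minus strand), the smooth muscle form, had 79 and 77 reads, or 102 and 107 CPM, a mean of 104 ± 3.12 CPM. Tagln2 held 86.3% of transgelin reads in replicate 1 (83.2 to 88.9) and 87.8% in replicate 2 (85.0 to 90.1). Tagln3, the neuronal family gene outside the chosen 5, had 0 reads in either library.

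The order by CPM was Cnn3, Cnn2, Tagln2, Tagln and Cnn1 in both libraries. Cnn3 exceeded Cnn2 by 1.13-fold and 1.03-fold within replicates 1 and 2, and the ranges of these neighbours overlapped. The other neighbours did not overlap in CPM. Cnn2 stood 1.58-fold and 1.67-fold above Tagln2, Tagln2 6.29-fold and 7.18-fold above Tagln, and Tagln 3.95-fold and 3.50-fold above Cnn1. Per kilobase the order stayed the same, but different neighbours overlapped. Cnn3 had 558 and 644 CPM per kilobase, Cnn2 412 and 519, Tagln2 405 and 482, Tagln 64.0 and 66.8 and Cnn1 10.9 and 12.8, so on that scale Cnn2 and Tagln2 overlapped and Cnn3 stood clear. The order itself was not tested.

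**Figure D1:**
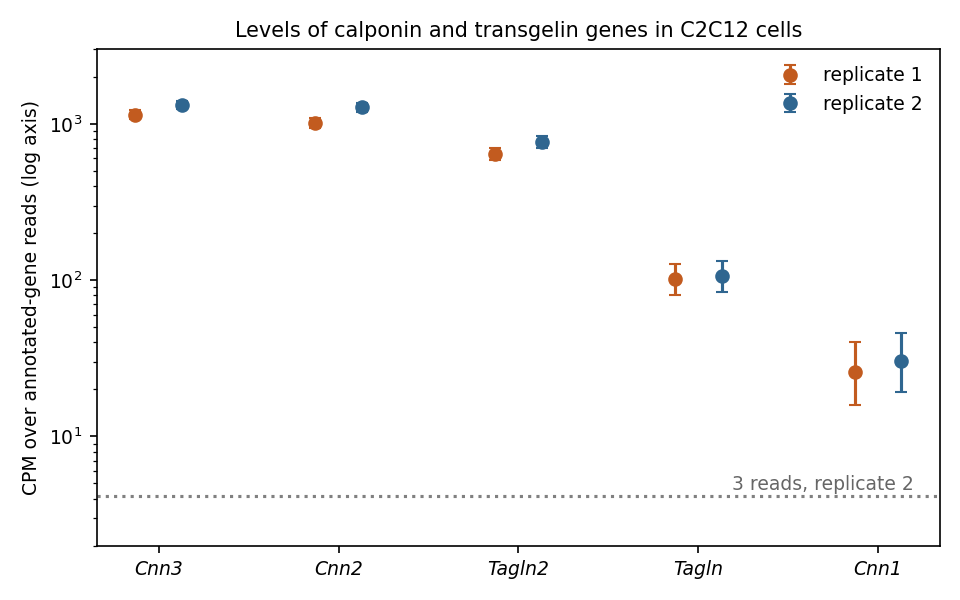
CPM over annotated-gene reads on a log axis for each gene, replicate 1 to the left of replicate 2, with exact Poisson 95% intervals of the counts; the dotted line is the level of 3 reads in replicate 2. Cnn3, Cnn2 and Tagln2 lie between 643 and 1320 CPM, and Tagln and Cnn1 between 25.9 and 107 CPM.

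The genes were then set beside a list of contractile and cytoskeletal genes found in smooth muscle, and beside SRF regulators. The list is not specific to smooth muscle, and Des is also among the myoblast markers below. Of its 15 genes, 13 were read in both libraries and 9 had a higher mean level than Tagln. Acta2, smooth muscle alpha-actin, had 2766 and 2912 CPM, the tropomyosin gene Tpm1 2219 and 2274 CPM, the muscle filament gene Des 1139 and 1643 CPM and the regulatory light chain gene Myl9 530 and 538 CPM. Myh11, the smooth muscle myosin heavy chain, had 0 reads, and the myosin light chain kinase gene Mylk had 0 and 1.

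The SRF regulators were low. Of 5 annotated genes, 4 were read in both libraries, with sums of 63.4 and 48.4 CPM. The cofactor genes Mrtfa and Mrtfb had 16.8 and 18.0 CPM and 24.6 and 6.92 CPM, the ternary complex factor gene Elk1 14.2 and 22.1 CPM and Srf 7.76 and 1.38 CPM. Myocd, which encodes myocardin, had 0 reads. None of the 3 SRF genes with enough reads to test was called between the libraries (Mrtfa, Mrtfb and Elk1, adjusted p 1.00, 0.116 and 0.768, exact binomial test). Of the 12 contractile genes tested 1 was called, Des, which was lower in replicate 1 (adjusted p 5.84e-14). Over all 8940 genes tested, 3.98% were called.

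**Figure D2:**
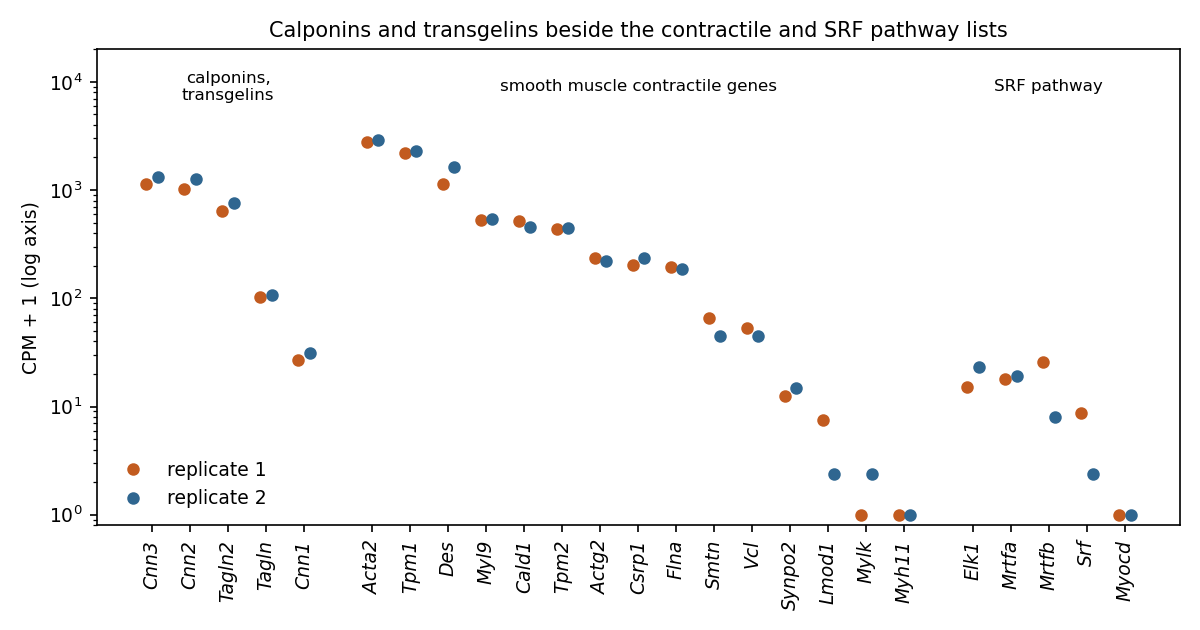
CPM + 1 on a log axis for the 5 genes, for 15 smooth muscle contractile genes and for 5 genes of the SRF pathway, with replicate 1 drawn left of replicate 2. Cnn3 and Cnn2 lie near Des, Tagln lies between Flna and Smtn, and Myh11 and Myocd lie at 0 reads.

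The markers of the labelled cell type were present. All 6 myoblast markers were read in both libraries, with sums of 2481 and 2914 CPM, led by Des and by Myog (566 and 628 CPM), the myogenin gene. The markers did not all move together between the libraries. Myf5, a myogenic determination factor gene, had 278 CPM in replicate 1 and 83.0 CPM in replicate 2 (a log2 ratio of 1.73, with an adjusted p of 1.05e-16 in the exact binomial test), while Des was lower in replicate 1. Of the 6 markers these 2 were called. Of 6 defining smooth muscle markers, 3 were read in both libraries, with sums of 244 and 224 CPM. Nearly all of this was Actg2, enteric smooth muscle actin, at 237 and 219 CPM, and Myh11, Myocd and Pln were at 0 reads. Markers of fibroblasts summed to 1.29 and 9.69 CPM, of endothelium to 0 and 1.38 CPM and of blood cells to 3.88 and 8.30 CPM.

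The only comparison that the design allows is between the 2 libraries, which measures their spread and no condition. All 5 genes had a lower scaled level in replicate 1 than in replicate 2, as did the median over all genes tested. Of the 5 genes 1, Cnn2, passed the test. For each gene with at least 10 reads over both libraries, an exact binomial test (two-sided) set its reads against the annotated-gene totals of the libraries, and p-values were adjusted over 8940 genes by the Benjamini-Hochberg method. They cover counting error only. Of the 8940 genes 356 (3.98%) were called, with 2.60% higher in replicate 1 and 1.39% higher in replicate 2. With TMM scaling the split was 303 higher in replicate 1 and 82 higher in replicate 2, and with DESeq2 size factors 315 and 78, against 232 and 124 here. The biological coefficient of variation over all tested genes was 0.136 (edgeR).

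Cnn2, at 1014 CPM in replicate 1 and 1277 CPM in replicate 2, had a log2 ratio of replicate 1 over replicate 2 of -0.33 (counting SE 0.07) and an adjusted p of 1.66e-04 in the exact binomial test. The call held under TMM scaling (-0.28, adjusted p 0.00321), under DESeq2 size factors (-0.27, adjusted p 0.00443) and on complete models alone (-0.35, adjusted p 1.30e-04, exact binomial test in each). Cnn3 had a log2 ratio of -0.21 (SE 0.07, adjusted p 0.0508) and Tagln2 of -0.25 (SE 0.09, adjusted p 0.0919), and neither passed. With genes under 50 reads left out Cnn3 passed, at an adjusted p of 0.0294 in the exact binomial test. At that filter 406 of 4739 genes were called, against 356 of 8940 in the main test. In the main test Cnn1 (-0.23, SE 0.44, adjusted p 0.924) and Tagln (-0.06, SE 0.23, adjusted p 0.985) did not pass. The median log2 ratio was -0.23 over the 5 genes and -0.06 over all genes tested. Tagln thus stood at the median of all genes, and its ratio was -0.01 with TMM scaling and -0.00 with DESeq2 size factors. The share of all genes that were lower in replicate 1 was not counted.

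Each gene used 1 annotated transcript for nearly all of its complete reads. Complete reads are those on models of the classes Known, NIC and NNC. Known models have an annotated structure. NIC models are labelled as unannotated but built from annotated splice sites, and NNC models as having an unannotated splice site. Some NIC models of Cnn2 and Tagln nevertheless held a splice site absent from GENCODE M21. Cnn2-201 took 683 of 701 complete reads in replicate 1 (97.4%) and 858 of 878 in replicate 2 (97.7%). Cnn3-201 took 98.2% and 98.4%, and Tagln2-202 97.2% and 96.1%. Cnn1-201 took 19 of 19 and 20 of 21. These shares lie above the median over 4281 genes, which was 89.1% and 89.4%, and those of Cnn2, Cnn3 and Tagln2 also lie above the upper quartile of 95.7% and 95.8%.

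Tagln-201 had the lowest share, 62 of 69 complete reads (89.9%, Wilson 95% interval 80.5 to 95) and 63 of 70 (90.0%, 80.8 to 95.1). Replicate 1 minus replicate 2, the share of the main transcript differed by -0.29 points in Cnn2, -0.16 in Cnn3, -0.14 in Tagln and 1.15 in Tagln2. None of these 4 genes, which had at least 20 complete reads in each library, passed a two-sided Fisher's exact test (unadjusted p 0.370 to 1.00, adjusted p 1.00 for each). Over all 4281 genes tested that way, 75 (1.75%) were called. Cnn1, with 19 complete reads in replicate 1, was not tested.

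Of 22 annotated transcripts of the 5 genes, 8 had a read in either library. Beside the 5 main ones these were Cnn3-202, a retained-intron transcript with 3 and 3 reads, Cnn3-204 with 2 and 1 reads, and Tagln2-201 with 5 and 2 reads. Tagln2-201 starts at an alternative first exon, and it held 1.15% (0.491 to 2.66) and 0.391% (0.107 to 1.41) of the complete Tagln2 reads. The second annotated Cnn2 transcript, Cnn2-202, had 0 reads in either library, which allows a share of up to 0.545% and 0.436% (upper Wilson bounds). The other Tagln transcripts, Tagln-202 and Tagln-203, also had 0.

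Skipping of a whole internal exon was rare. Of 21 internal exons of the 5 main transcripts, 14 had no read that skipped them in either library, 4 were skipped in both, and no exon was skipped by more than 3 reads in a library. Exon 3 of Tagln2, 175 bases that are not a multiple of 3, was skipped by 1 of 463 spanning reads in replicate 1 (0.216%) and 3 of 540 in replicate 2 (0.556%). Exon 4 of Tagln, the 103 bases printed above, was skipped by 1 of 76 (1.32%) and 2 of 74 (2.70%). In Cnn2, 1 read in each library joined exon 4 to exon 7, leaving out 264 bases, a multiple of 3. Exons 2 to 5 of Cnn3 were skipped by 0 of at least 843 and 927 spanning reads, which allows at most 0.356% and 0.324% (3 counts).

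The unannotated structures of several exons were few and mostly single reads. The 5 genes had 58 of them, 34 in each library, with 42 reads in replicate 1 and 57 in replicate 2. Of the 58, 42 (72.4%) rested on 1 read in all, beside 76.8% over all annotated genes, and 10 (17.2%) had the same intron chain in both libraries, beside 15.9%. Cnn2 had 3 in both libraries, Cnn3 2, Tagln 2, Tagln2 3 and Cnn1 0. At least 2 reads in each library were reached by 1 structure, of Cnn3. Of the 10, 5 used a donor shifted into the intron, 3 left out whole exons and 2 began an exon at a later acceptor.

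The most frequent of these changes was a donor 4 bases further into the intron than the annotated one. Of 17 unannotated donors within 20 bases of an annotated donor, 10 (58.8%) were at +4, and every one of the 5 genes had at least 1. The reads on them numbered 17 and 23. Of the 10 donors 5 were read in both libraries, beside 1795 of 6514 over all annotated genes, without matching for read depth. The same spacing dominated over all annotated genes, where 6514 of 12205 such donors (53.4%) lay at +4, a share close to that of the 5 genes. At the end of Cnn3 exon 4 the shifted donor had 5 and 2 reads, at the end of Cnn2 exon 6 it had 3 and 8, and at the end of Tagln2 exon 2 it had 3 and 2. The extra 4 bases are not a multiple of 3.

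**Figure D3:**
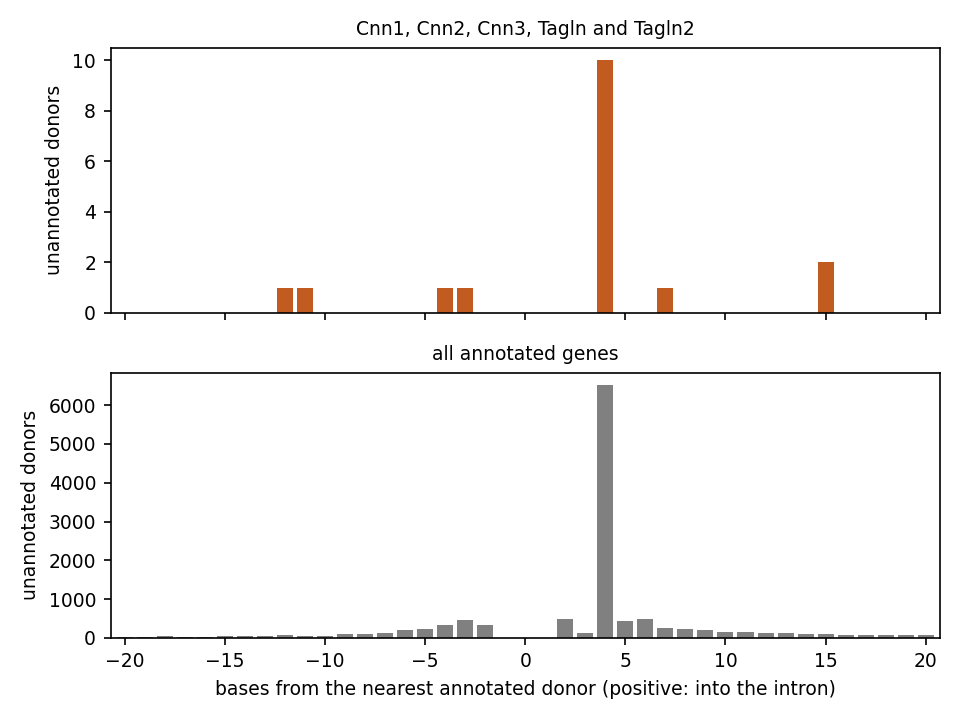
Number of unannotated donors at each distance from the nearest annotated donor, within 20 bases, in models of the 5 genes (top) and of all annotated genes (bottom); positive distances lie in the intron. The bar at +4 holds 10 of 17 donors above and 6514 of 12205 below.

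Where another annotated transcript reads through the donor, the bases can be printed, and this was so for 4 of the 26 donors of the main transcripts. Each sequence below has 10 exon bases, then in capitals the first 6 intron bases, then the next intron bases, all from GENCODE M21 transcripts on mm10. The Cnn1 exon 6 donor (chr9:22107888-22107909), the Cnn3 exon 2 donor (chr3:121450061-121450082) and the Tagln2 exon 2 donor (chr1:172505318-172505339) had reads at +4, and the Tagln exon 3 donor (chr9:45931288-45931309, minus strand) had 0.
Cnn1 exon 6: tgccagccagGTCTGTgtagtc
Cnn3 exon 2: tattgtgcgaGTGAGTggccct
Tagln2 exon 2: ggacggcacgGTGAGTgctgga
Tagln exon 3: ctctatgaagGTATAAggaaaa
The donors with shifted reads had a second GT at intron bases 5 and 6 (motif GTNNGT), and the Tagln donor did not. Over all annotated GT donors that could be read in this way, 12085 of 33980 (35.6%) had the second GT, and of those with a shifted donor 1308 of 1328 (98.5%) did. Bases 5 and 6 are the first intron bases of a donor at +4, so a shifted GT donor has the second GT by construction. The 98.5% is therefore no separate link between the motif and the shift. A match is a description of these letters and shows neither splicing nor an alignment error.

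Shifted acceptors were fewer. In Cnn2 an acceptor 4 bases inside exon 4 was used by complete models with 3 and 2 reads. In Tagln2 an annotated acceptor 19 bases inside exon 2 was joined to exon 1 by 1 and 4 reads, within the untranslated stretch before the start codon. The first bases of these exons are printed with the bases left out in capitals, and both stretches end in AG, at chr10:79992443-79992466 (Cnn2) and chr1:172505120-172505143 (Tagln2), both on the plus strand.
Cnn2 exon 4: CTAGaaaatctctccaacttcatc
Tagln2 exon 2: CTCTTTGCCATCACCACAGctgct
Both changes rest on 5 reads over the libraries together.

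Completeness differed among the genes and moved with the library. Over all annotated genes 84.0% of reads in replicate 1 and 88.3% in replicate 2 lay on complete models. Cnn3 was above this at 95.7% and 97.5%, Cnn2 at 89.4% and 95.1%, and Tagln2 stood at 87.7% and 92.6%. Tagln, at 87.3% (Wilson 95% interval 78.2 to 93.0) and 90.9% (82.4 to 95.5), and Cnn1, with 19 of 20 and 21 of 22 reads complete, were measured on few reads. All 5 genes had the lower share in replicate 1, as did the sum over all genes. For Cnn1 this reflects only the totals, since each library had 1 incomplete read. The share of all genes that go this way was not counted.

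**Figure D4:**
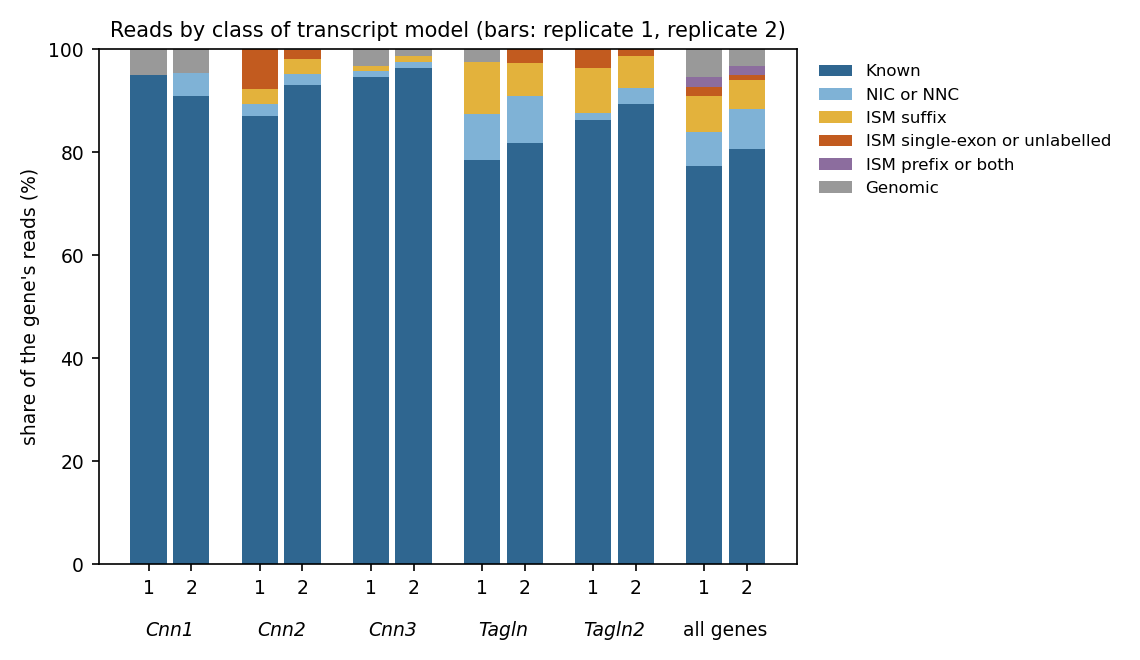
Share of the reads of each gene, in percent, on each class of transcript model, replicate 1 left of replicate 2, with all annotated genes at the right; ISM models match part of an annotated intron chain, and Genomic models overlap a gene without matching its splicing. Single-exon incomplete models take 7.65% of Cnn2 reads in replicate 1 and 1.73% in replicate 2.

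The incomplete (ISM) reads of these genes were all short at the 5' side. In replicate 1 there were 161 such reads and in replicate 2 103, and every one reached the last exon. None was of the prefix class, which keeps the 5' end and lacks the 3' end, whereas over all genes 12282 of 82116 and 12207 of 60893 ISM reads were. In Tagln2, 27 and 28 of 61 and 41 ISM reads began in exon 2 and so lacked the untranslated first exon, and 18 and 7 began in exon 5. In Cnn2, 13 and 18 of 83 and 43 began in exon 2 and 60 and 16 lay in exon 7 alone. Cnn3 had 9 and 12 ISM reads and Cnn1 had 0.

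The Cnn2 reads in exon 7 alone differed between the libraries. They made up 7.65% of Cnn2 reads in replicate 1 (5.99 to 9.73) and 1.73% in replicate 2 (1.07 to 2.80), and these Wilson 95% intervals do not overlap. Over all genes this class took 1.80% and 0.986% of reads. Without single-exon models Cnn2 had 724 reads in replicate 1 and 905 in replicate 2, so its lower level in replicate 1 was also present without them.

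Unspliced reads of the class Genomic were seen mainly on Cnn3, with 29 reads in replicate 1 (3.28%) and 12 in replicate 2 (1.26%), against 5.38% and 3.23% over all genes. In replicate 1 a single model of 27 reads ran from the last intron through exon 7 (chromosome 3, 121456058 to 121458199). In replicate 2 a model of 11 reads lay within exon 7 (121457082 to 121457947). Full retention of an intron between main exons was seen for Cnn2 intron 5, of 97 bases, with 4 and 3 reads, and in at most 2 reads of a library elsewhere.

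**Figure D5:**
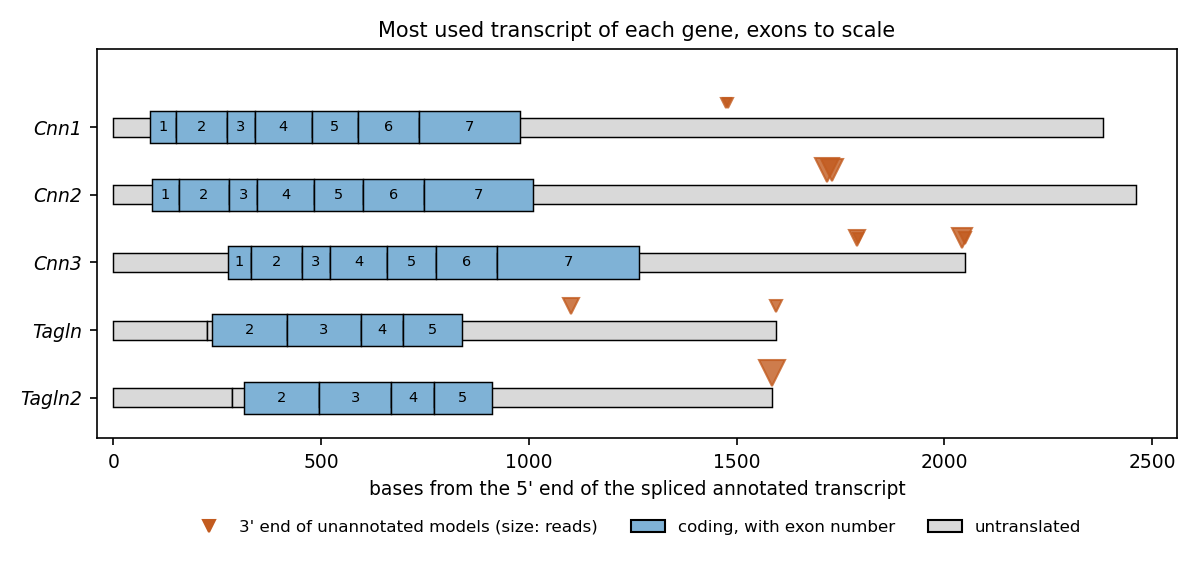
The most used transcript of each gene, spliced and drawn to scale in bases from its 5' end, with coding exons numbered; triangles mark the 3' ends of unannotated models within the last exon, with size rising with their reads. In Cnn2 and Tagln most of these ends fall well before the annotated end, and in Tagln2 all fall on it.

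The 3' ends of unannotated models often fell short of the annotated end, and the models resolve this only in part. Models of the class Known carry the annotated coordinates, so their reads say nothing of the true end. Of the unannotated models of the 5 genes, 30 of 56 in replicate 1 and 37 of 59 in replicate 2 ended exactly at an annotated exon boundary, so ends were not finely resolved. In Tagln2 all 68 and 59 reads on unannotated models ended at the annotated end. In Cnn2, 23 models of replicate 1, with 101 reads, all carried the same end, 743 bases before the annotated end. In replicate 2, 18 models with 63 reads all carried another end, 730 bases before it. These are ends given to models, so the counts do not show that each read ended at that base.

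Cnn1 had only 3 reads on unannotated models, and all ended about as far from the annotated end as each other. The read of replicate 1, on an unspliced model, ended 907 bases before it. The 2 reads of replicate 2, of which 1 was on an unspliced model, ended 903 bases before it. The polyadenylation hexamer AATAAA was searched in the 50 bases before each end, on the sense strand. It was found before the short Cnn1 ends and before the annotated Cnn1 end, and the last 30 bases before each are printed with the hexamer in capitals, at chr9:22108694-22108723 and chr9:22109601-22109630.
Cnn1 short end: tttcactggagcacAATAAAtggctgtgac
Cnn1 annotated end: atcatccactAATAAAtgtctttggaaaac
The hexamer stood in 58.8% of such windows before the annotated ends of protein-coding transcripts with reads, and in 1.83% of windows that end 450 bases earlier.

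The other short ends differed in this respect. More Cnn3 reads on unannotated models, 35 in replicate 1 and 19 in replicate 2, ended 8 bases before the annotated end, also with AATAAA before it. Of the 35, 27 lay on 1 unspliced model. The Cnn3 models that ended 260 bases before the annotated end had 8 and 11 reads. All 11 reads of replicate 2 lay on 1 unspliced model, so no spliced unannotated model of that library ended there. This short end is the annotated end of Cnn3-205, and AATAAA lay before it (chr3:121457918-121457947).
Cnn3 short end: ctaagttttaAATAAAgtcatgatcagtgt
Before the short Cnn2 ends neither AATAAA nor ATTAAA was found in 50 bases, while ATTAAA stood before the annotated Cnn2 end; ATTAAA stood before 17.2% of annotated ends of transcripts with reads. In Tagln, 15 and 10 reads ended 493 bases before the annotated end, at a position that is also the edge of Gm48529, an antisense gene on the opposite strand with 0 reads, and neither hexamer preceded it.

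Other annotated genes overlapped Cnn3 and Tagln. Gm42928, on the opposite strand from Cnn3, and Gm42929, on the same strand, had 0 reads in either library. Pcsk7, a proprotein convertase gene on the opposite strand that overlaps the end of Tagln, had 15 and 15 reads. Whether reads of an overlapping partner were assigned to Tagln was not tested.

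Of the 4 genes with a RefSeq promoter window of 250 bases before to 50 after the start (GRCm38.p6), 1 held a CArG box when both strands were searched. Tagln was not searched here. Cnn2 was the gene with a box, which began 56 bases before the RefSeq start. The box lies in the stretch chr10:79988529-79988568 on the plus strand, in capitals here.
Cnn2: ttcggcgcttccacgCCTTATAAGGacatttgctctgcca
Of all 32851 RefSeq windows of this kind, 535 (1.63%) held a CArG box. Cnn1, Cnn3 and Tagln2 had none within their windows, which says nothing about sites elsewhere.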

How the data were processed

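Long reads of total RNA from 2 C2C12 libraries were analysed. The values deposited by the authors are raw read counts for each transcript model, not normalised, and the paired annotations give mm10 coordinates with GENCODE M21 names, per the file headers. The alignment tool and its settings were not given in the sources used here. Counts of all models of a gene were added up, and CPM used the 773408 and 722647 annotated-gene reads. The 5 genes, the lists, the tests and the alternatives were chosen with earlier results of these data known.

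Genes with at least 10 reads over both libraries were compared between the libraries by an exact binomial test (two-sided), and genes with at least 20 complete reads in each library by a two-sided Fisher test of the main transcript against other complete models, both with Benjamini-Hochberg adjustment at 0.05 (Python 3.11.15, scipy 1.17.1, pandas 2.3.3). Log2 ratios used an offset of 0.5 reads. The labels call the libraries biological replicates, and p-values, Wilson and Poisson 95% intervals and floors of 3 counts cover counting error only. Scaling factors of edgeR 4.0.16 (TMM) and DESeq2 1.42.0 were estimated on genes with at least 10 reads, and other read filters, complete models alone, other denominators and single libraries were tried. Both tests were tried on simulated reads.

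Unannotated structures were matched by chromosome, strand and exact intron chain. Sequences came from GENCODE M21 transcripts and RefSeq promoters, and coding sequences were aligned with Biopython 1.88. By rule all 5 genes were named, with their transcripts that had reads, up to 3 structures seen in both libraries per gene, overlapping genes, Tagln3 and at most the 4 highest genes of each list. Other exons, ends, structures and list genes were named after their values were seen.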

Additional observations from a re-analysis of the deposited data

How the results depend on the processing

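Of the values under other settings, 86 counted as the same, 13 as moved and 1 gained a call. Tests were judged by their calls, levels and shares by the spread between libraries, and counts of structures by a fold limit. With 2 libraries, a level or share from 1 library alone always lies within that spread. Such settings could not count as moved, so the 86 include values that were the same by construction. Cnn3, with a log2 ratio of -0.21, gained its call between libraries when genes under 50 reads were left out. In that setting 406 of 4739 genes were called. On complete models alone the mean level was 1379 CPM for Cnn3 and 108 CPM for Tagln. With all models as the denominator the mean share of the most used transcript was 93.0% for Cnn1, 90.0% for Cnn2, 95% for Cnn3, 80.1% for Tagln and 87.1% for Tagln2. Among annotated models alone it was 100% for Cnn2, 99.5% for Cnn3, 100% for Tagln and 99.2% for Tagln2. These shares change with their denominators by construction. The 10 unannotated structures seen in both libraries became 1 with at least 2 reads in each and 0 with at least 5. Leaving out either replicate changed no order of the 5 genes. No paired analysis was possible because the series has 1 group. Depth limits Cnn1 and Tagln most, with 20 to 22 and 77 to 79 reads per library.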
